A study of Mus musculus with 6 samples.

Results

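The 6 genes described here encode the mouse receptors for IgG antibody and their obligate partner. They are Fcgr1, Fcgr3 and Fcgr4, the activating receptors, Fcgr2b, the inhibitory receptor, Fcer1g, the signalling chain that the activating receptors share, and Fcgrt, the heavy chain of the neonatal Fc receptor. The members were chosen by gene symbol, with no threshold on their values, and all 6 were found among the 18280 genes of the deposited table. The list was drawn up with the differences between the genotypes in these data already known, so the fold changes and p-values of the members describe them and are not independent evidence. RNA sequencing covered 6 ovary samples, 3 from mice carrying a Dennd1a transgene (TG) and 3 from wild-type mice (WT). Whether each sample came from a different animal is not stated in the labels. The mice had been injected with PMSG, a gonadotropin preparation with FSH activity, 44 h earlier. The mouse strain, the age of the animals and the promoter of the transgene are not stated in the labels, so the cells in which the transgene acts are not known here.

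Fc gamma receptors sit on macrophages, monocytes, neutrophils, NK cells, B cells and mast cells and bind the constant part of IgG. Activating receptors have no signalling motif of their own and pass the signal through the ITAM of the Fcer1g chain, a pair of tyrosines that Src family kinases phosphorylate and the kinase Syk reads, which drives uptake of antibody-coated particles. Fcgr2b carries an ITIM, a single tyrosine that recruits the inositol phosphatase encoded by Inpp5d and damps the same pathway. The neonatal receptor is built differently. It resembles an MHC class I molecule, pairs with the light chain encoded by B2m and returns IgG and albumin from endosomes to the cell surface.

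The coding sequences of these motifs show how the signalling chain and the inhibitory receptor differ, and were read from the GENCODE M21 transcripts Fcer1g-201 and Fcgr2b-201, with the codons of the motif tyrosines in capitals. The ITAM stretch covers residues 65 to 79 of the 86 residues of the Fcer1g reading frame, and the ITIM stretch residues 317 to 322 of the 340 residues of the Fcgr2b reading frame.
Fcer1g ITAM codons: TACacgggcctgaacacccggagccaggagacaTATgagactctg
Fcgr2b ITIM codons: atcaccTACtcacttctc

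The promoters of Fcgr1 and Fcgr4 are printed because these were the members whose transcripts differed most between the genotypes. The windows run from 250 bases before to 50 bases after the annotated start, come from the RefSeq table of build GRCm38.p6 and are written on the strand of the gene. For Fcgr1 this is chr3:96293920-96294219 on the minus strand, and the capitals mark a match to TTCNNNGAA, the letters of an interferon-gamma-activated site. For Fcgr4 it is chr1:171018676-171018975 on the plus strand, and the capitals mark a match to GAAANNGAAA, the letters of an interferon-stimulated response element.
Fcgr1 promoter: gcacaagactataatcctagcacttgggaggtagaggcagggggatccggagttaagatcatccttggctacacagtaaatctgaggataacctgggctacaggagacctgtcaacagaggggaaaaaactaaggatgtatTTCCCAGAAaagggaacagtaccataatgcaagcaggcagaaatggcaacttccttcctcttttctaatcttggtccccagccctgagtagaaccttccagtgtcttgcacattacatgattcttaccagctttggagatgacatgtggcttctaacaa
Fcgr4 promoter: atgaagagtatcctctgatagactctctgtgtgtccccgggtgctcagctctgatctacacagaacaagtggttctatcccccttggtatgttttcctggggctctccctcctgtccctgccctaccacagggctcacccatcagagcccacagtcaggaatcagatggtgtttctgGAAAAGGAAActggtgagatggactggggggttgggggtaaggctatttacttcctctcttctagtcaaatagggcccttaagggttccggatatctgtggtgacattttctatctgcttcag

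The match in the Fcgr1 window begins 109 bases before the start and that in the Fcgr4 window 73 bases before it. Both strands were searched. Among 32851 promoter windows of mouse genes, 8.30% hold TTCNNNGAA and 3.44% hold GAAANNGAAA. The windows of Fcgr2b, Fcgr3, Fcer1g and Fcgrt, with a pair of start sites for Fcgr3, held neither run of letters. GAGGAA, the core that the myeloid factor PU.1 binds, was found on the reverse strand of the Fcgr1, Fcgr3 and Fcgr4 windows, apart from the other matches, against 28.3% of all windows. A match of letters describes the sequence and was not tested for binding.

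The libraries held between 17075484 and 18516171 estimated counts. Values are counts-per-million (CPM) scaled with TMM factors, and FPKM values from the deposited table are used wherever genes are compared with each other, since FPKM also corrects for transcript length. Dennd1a measured between 570 and 588 CPM in TG ovaries and between 39.5 and 49.3 CPM in WT libraries. TG replicate 2 stood apart for the fat cell gene Cfd, at 86.8 CPM against 9.45 CPM or less elsewhere, and WT replicate 3 for the oviduct gene Ovgp1, at 40.9 CPM against 5.99 CPM or less elsewhere. Granulosa markers were present at a summed 5531 to 6288 CPM in TG ovaries and 5092 to 6482 CPM in WT ovaries, and theca markers at 24657 to 27755 CPM in TG ovaries and 24887 to 30174 CPM in WT ovaries. Most of the granulosa sum came from Inha, and most of the theca sum from Cyp11a1 and Hsd3b1. The labels do not say whether the replicates are more than separate samples of a genotype, and p-values measure the spread between these samples.

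Fcgr1 and Fcgr4 transcripts fell in TG ovaries relative to WT, by 3.46-fold and 2.97-fold. The other 4 members also had fold changes below 1 but did not pass the test. A gene is called when its p from edgeR's quasi-likelihood test, adjusted by Benjamini-Hochberg over all 14124 genes tested, is under 0.05. By that rule 2 of the 6 members were called lower and 0 higher, where over all genes tested 1.02% were called lower and 0.0354% higher. All 6 members passed the filter on low counts. Their median log2 fold change was -0.56, beside 0.00 over all genes tested. At an unadjusted edgeR p under 0.05, 5 of the 6 members were lower, against 3.14% of all genes tested. Every TG library lay below every WT library for the 2 called members and for 5.04% of all genes tested. DESeq2 called 3 members lower, Fcer1g in addition, against 1.27% of the genes it tested. The plot of CPM by sample shows all 36 values.

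**Figure D1:**
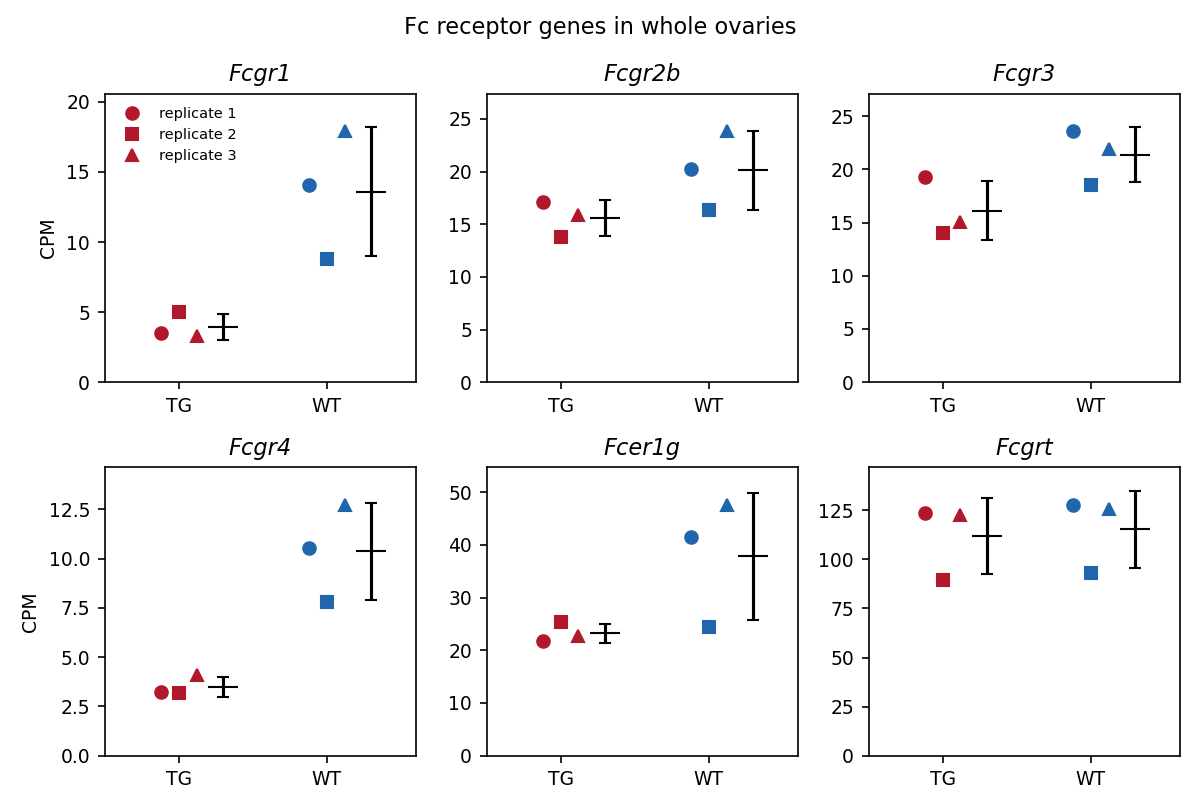
Normalised expression of the 6 Fc receptor genes in CPM (vertical axes, each from 0) in TG and WT ovaries, with a symbol per replicate and the mean ± SD beside them (n = 3 each). Fcgr1 and Fcgr4 had no overlap between genotypes, while WT replicate 2 was the lowest WT library in every panel.

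Fcgr1, the receptor that binds IgG with high affinity, had 3.50, 4.997 and 3.27 CPM in TG replicates 1 to 3, against 14.1, 8.75 and 17.9 CPM in WT replicates 1 to 3. The highest TG library stayed below the lowest WT library. Its means were 3.92 ± 0.940 CPM in TG ovaries and 13.6 ± 4.60 CPM in WT ovaries (± SD, n = 3 per genotype). Its log2 fold change, TG over WT, was -1.79, with an SE of 0.28 (95% interval -2.41 to -1.16), and its edgeR adjusted p was 0.0119. Its estimated counts were 56 to 87 in TG and 160 to 305 in WT, and counting error alone reaches 13.4% at the lowest of them. The call of Fcgr1 was lost without TG replicate 1 (adjusted p in edgeR 0.0618), TG replicate 3 (0.0673) or WT replicate 3 (0.0531). It was also lost with the replicate number as a block (0.0603), and the log2 fold change stayed between -2.03 and -1.54 when any single library was left out.

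Fcgr4, an activating receptor of mouse myeloid cells that prefers IgG2a and IgG2b, had 3.22, 3.16 and 4.08 CPM in TG replicates 1 to 3, against 10.6, 7.82 and 12.7 CPM in WT replicates 1 to 3. The genotypes were again separate, with the TG libraries closer together than the WT libraries. Its means were 3.49 ± 0.517 CPM in TG ovaries and 10.4 ± 2.46 CPM in WT ovaries (± SD, n = 3 per genotype), or -1.57 as a log2 fold change (SE 0.22, 95% interval -2.06 to -1.08, edgeR adjusted p = 0.00538). The call of Fcgr4 held without any single library. It was lost with both TG replicate 2 and WT replicate 3 left out (log2 fold change -1.33, edgeR adjusted p = 0.1002).

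Fcgr3, the low-affinity activating receptor, had 19.3, 14.01 and 15.1 CPM in TG replicates 1 to 3, against 23.6, 18.5 and 22.0 CPM in WT replicates 1 to 3. TG replicate 1 lay above WT replicate 2, so the genotypes overlapped. The log2 fold change was -0.41 (SE 0.15, 95% interval -0.74 to -0.07), with an unadjusted p of 0.0230 and an adjusted p of 0.867 in edgeR.

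Fcgr2b, the inhibitory receptor whose ITIM codons are printed above, had 17.1, 13.8 and 15.9 CPM in TG replicates 1 to 3, against 20.2, 16.3 and 23.8 CPM in WT replicates 1 to 3. TG replicate 1 exceeded WT replicate 2 here too. The log2 fold change was -0.37 (SE 0.16, 95% interval -0.72 to -0.02, edgeR adjusted p = 0.9997). Without TG replicate 2 and WT replicate 3 it was -0.15.

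Fcgr3 and Fcgr2b share short identical stretches, and reads that fall wholly within them could come from either gene. In the GENCODE M21 protein-coding transcripts 10.2% of the distinct 50-base words of Fcgr3 also occur in Fcgr2b, and 4.48% of those of Fcgr2b occur in Fcgr3. At 100 bases the shares are 2.70% and 1.14%. No other pair of members shares a word of 50 bases. The counts of all 6 members were whole numbers in every library, and the read length is not given in the sources used here.

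Fcer1g, the ITAM chain without which the activating receptors are not held at the cell surface, had 21.7, 25.3 and 22.6 CPM in TG replicates 1 to 3, against 41.6, 24.3 and 47.6 CPM in WT replicates 1 to 3. WT replicate 2 fell among the TG libraries, and the other WT libraries lay well above them. Its means were 23.2 ± 1.85 CPM in TG ovaries and 37.8 ± 12.1 CPM in WT ovaries (± SD, n = 3 per genotype), or -0.70 as a log2 fold change (SE 0.21, 95% interval -1.18 to -0.23, edgeR adjusted p = 0.446). It passed in DESeq2 (adjusted p = 0.0455). Without WT replicate 2 the log2 fold change of Fcer1g was -0.94 and its adjusted p in edgeR 0.00272.

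Fcgrt, the IgG-recycling receptor of endothelial and other cells, had 124, 89.4 and 122 CPM in TG replicates 1 to 3, against 128, 92.9 and 126 CPM in WT replicates 1 to 3. Replicate 2 was the low library in both genotypes, and the values of the genotypes otherwise lay side by side. Its means were 111.8 ± 19.5 CPM in TG ovaries and 115 ± 19.6 CPM in WT ovaries (± SD, n = 3 per genotype). The log2 fold change was -0.05 (95% interval -0.39 to 0.30, edgeR adjusted p = 0.9997), and its sign depended on which library was left out.

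The light chain that Fcgrt needs fell in TG ovaries. B2m, which is shared with MHC class I molecules, had 391, 471 and 463 CPM in TG replicates 1 to 3, against 1138, 1095 and 994 CPM in WT replicates 1 to 3. All TG libraries lay below all WT libraries. The log2 fold change of B2m was -1.28 (SE 0.10, edgeR adjusted p = 1.35e-04). Per length, B2m stood at 9.30 ± 2.45 times the FPKM of Fcgrt in TG and 21.8 ± 4.63 times in WT (± SD, n = 3 per genotype).

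**Figure D2:**
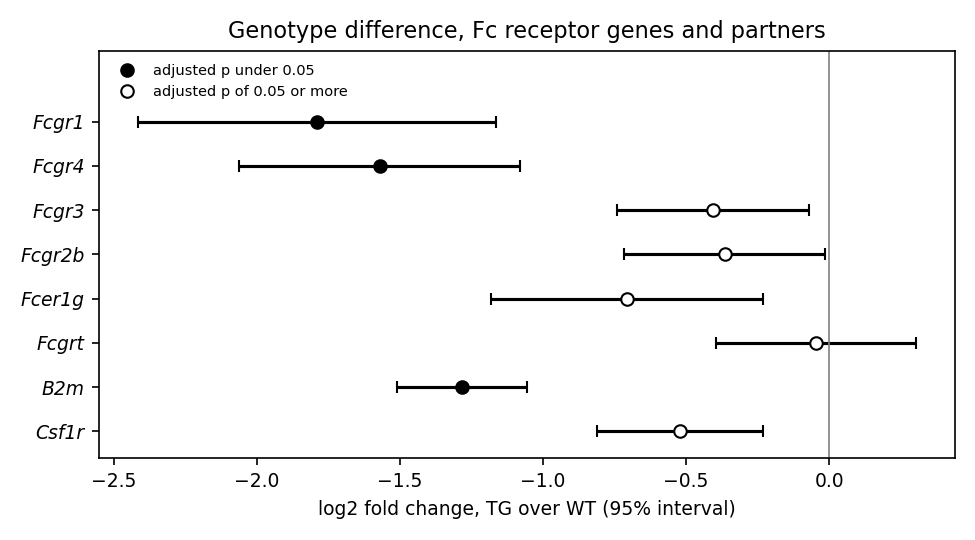
Log2 fold change, TG over WT, with its 95% interval from edgeR, for the 6 Fc receptor genes, for B2m and for the macrophage gene Csf1r. Filled points mark an adjusted p under 0.05: Fcgr1 at -1.79, Fcgr4 at -1.57 and B2m at -1.28, while Fcgrt at -0.05 has an interval on both sides of 0.

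In level per length, Fcgrt and Fcer1g were the most abundant members and Fcgr1 the least. Fcgrt averaged 71.4 ± 13.3 FPKM in TG and 73.3 ± 12.8 FPKM in WT, and Fcer1g 47.6 ± 2.97 FPKM in TG and 77.6 ± 24.8 FPKM in WT (± SD, n = 3 per genotype). The order of these 2 genes changed between libraries, with Fcer1g above Fcgrt in WT replicates 1 and 3. Fcgr3 averaged 13.5 ± 2.50 FPKM in TG and 17.8 ± 2.32 FPKM in WT, and Fcgr2b 12.6 ± 1.55 FPKM in TG and 16.1 ± 3.08 FPKM in WT. These neighbours did not differ beyond their spread, and Fcgr2b was the higher in TG replicate 3 and WT replicate 3. Fcgr4 averaged 3.24 ± 0.484 FPKM in TG and 9.59 ± 2.28 FPKM in WT, above Fcgr1 at 1.62 ± 0.369 FPKM in TG and 5.60 ± 1.90 FPKM in WT, and this order held in all 6 libraries.

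The make-up of the activating receptors was set apart by genotype, with more of the sum from Fcgr3 in TG ovaries. Their summed level was 18.4 ± 2.23 FPKM in TG and 33.0 ± 6.04 FPKM in WT (± SD, n = 3 per genotype). Fcgr3 made up 78.4%, 70.1% and 71.2% of that sum in TG replicates 1 to 3, against 55.9%, 58.7% and 48.8% in WT replicates 1 to 3. Fcgr4 made up 17.8 ± 3.38% in TG and 28.9 ± 2.20% in WT, and Fcgr1 8.99 ± 2.92% in TG and 16.6 ± 3.01% in WT. The level of the inhibitory Fcgr2b was 0.672, 0.663 and 0.715 times the summed activating level in TG replicates 1 to 3, against 0.459, 0.496 and 0.512 times in WT replicates 1 to 3. These ratios did not overlap between genotypes. Fcer1g stood at 2.62 ± 0.455 times the activating sum in TG and 2.31 ± 0.362 times in WT, and here the genotypes overlapped. All these ratios are built from the members' own values and carry no test. Fcgr1 and Fcgr4 are part of the sum, so the larger Fcgr3 share and Fcgr2b ratio restate their lower values in TG. Fcgr3 and Fcgr2b themselves had lower means in TG, at 13.5 against 17.8 FPKM and 12.6 against 16.1 FPKM.

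**Figure D3:**
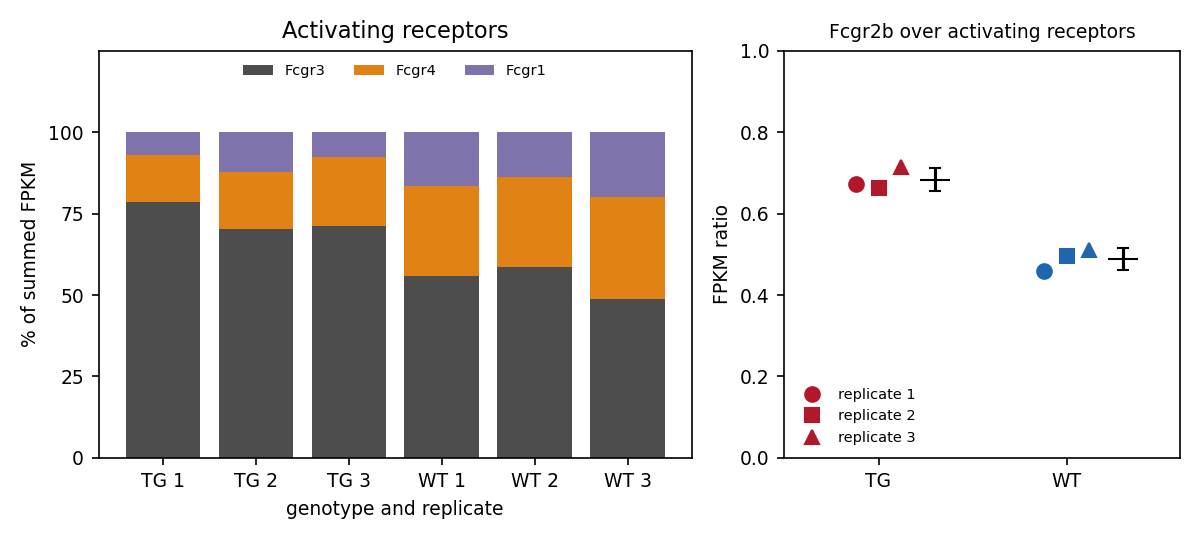
Left, share of each activating receptor in the summed FPKM of Fcgr3, Fcgr4 and Fcgr1 (%), for each library. Right, FPKM of the inhibitory Fcgr2b over that sum, with a symbol per replicate and the mean ± SD (n = 3 each). Fcgr3 holds 70.1% or more in TG and 58.7% or less in WT, and the ratio is 0.663 or more in TG and 0.512 or less in WT. Both measures restate the lower Fcgr1 and Fcgr4 in TG, since the means of Fcgr3 and Fcgr2b were not higher there.

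Markers of the macrophages and myeloid cells that carry these receptors had 17 of 18 fold changes below 1. Of 18 macrophage and myeloid markers 1 was called lower and 0 higher, 12 had an unadjusted edgeR p under 0.05, all lower, and DESeq2 called 6 lower. Over all genes tested edgeR called 1.02% lower, 3.14% were lower at an unadjusted edgeR p under 0.05, and DESeq2 called 1.27% lower. Every TG library lay below every WT library for 11 of the 18, against 5.04% of all genes tested. The 18 markers had a median log2 fold change of -0.56. They summed to 423 to 462 CPM in TG ovaries and 487 to 756 CPM in WT ovaries, with none of them at 0 in all libraries. The marker called was Mpeg1, a pore-forming protein of macrophages, at -0.82 (SE 0.15, edgeR adjusted p = 0.0328). Csf1r, the receptor that keeps macrophages alive, had 29.5 ± 1.56 CPM in TG ovaries and 42.4 ± 7.68 CPM in WT ovaries (± SD, n = 3 per genotype) with a log2 fold change of -0.52 (edgeR adjusted p = 0.189). Spi1, which encodes PU.1, had -0.59 (SE 0.25), Ptprc -0.96 (SE 0.20) and C1qa -0.80 (SE 0.18). Others of the list stayed near 0, with Lyz2 at -0.08, Mrc1 at -0.03 and Cd163 at 0.02. In RNA of ovary tissue fewer cells of a type and less RNA per cell cannot be told apart, and the part of myeloid cell number in the values of the Fc receptor genes was not tested.

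Set against Csf1r in the same library, Fcgr1 and Fcgr4 still separated the genotypes, whereas Fcgr3 and Fcgr2b did not. Csf1r was itself lower in TG, at a log2 fold change of -0.52, and no other marker served as the scale. Fcgr1 was 0.195 ± 0.0585 times the FPKM of Csf1r in TG and 0.469 ± 0.161 times in WT (± SD, n = 3 per genotype), and Fcgr4 was 0.385 ± 0.0483 times in TG and 0.808 ± 0.201 times in WT. Neither overlapped between genotypes. Fcgr3 was 1.61 ± 0.2203 times in TG and 1.49 ± 0.121 times in WT, and Fcgr2b 1.49 ± 0.0948 times in TG and 1.36 ± 0.294 times in WT. Fcer1g overlapped as well, at 5.69 ± 0.753 times in TG and 6.47 ± 1.92 times in WT. The ratio for Fcgrt, at 8.45 ± 1.07 times in TG and 6.14 ± 0.783 times in WT, was the higher in TG, without overlap. Fcgrt alone had a log2 fold change of -0.05, so with Csf1r lower in TG this ratio does not show a rise of Fcgrt.

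**Figure D4:**
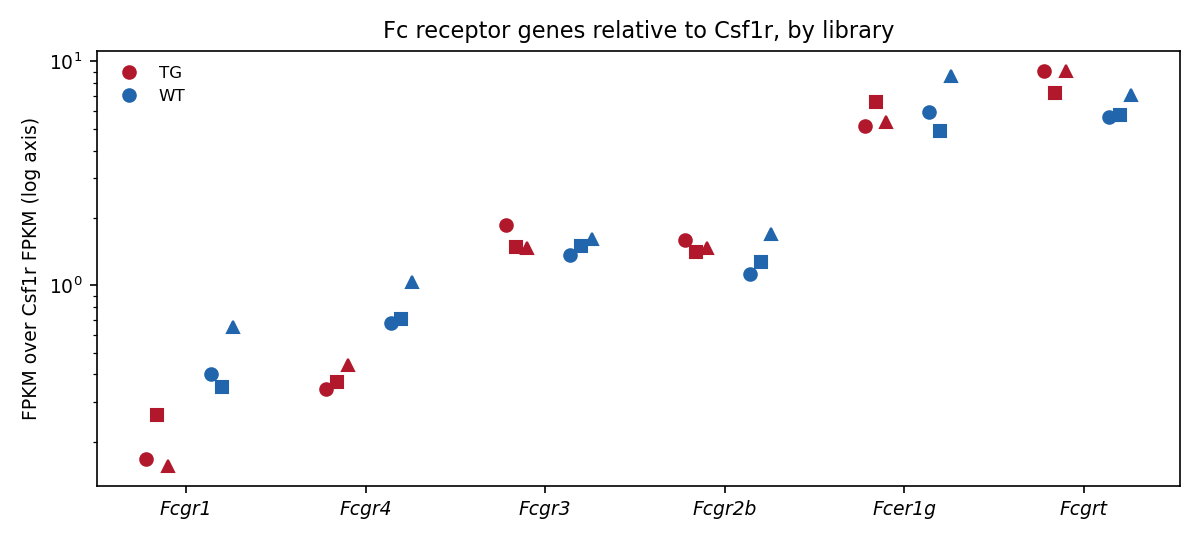
FPKM of each Fc receptor gene divided by the FPKM of Csf1r in the same library (log axis), TG left of WT for each gene and a symbol per replicate. Fcgr1 lies between 0.156 and 0.263 in TG and 0.352 and 0.653 in WT, while the genotypes mix for Fcgr3, Fcgr2b and Fcer1g.

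Markers of other carriers were scarce. Neutrophil markers summed to 1.32 to 1.55 CPM in TG ovaries and 2.30 to 2.70 CPM in WT ovaries, with 1 of 8 tested, Csf3r at -0.81 (SE 0.23). NK cell markers summed to 3.00 to 5.19 CPM in TG ovaries and 3.64 to 9.14 CPM in WT ovaries, with 4 of 8 tested, among them Klrb1c at -0.69, Nkg7 at -0.78 and Gzma at -1.13. B cell markers summed to 0.574 to 0.933 CPM in TG ovaries and 0.294 to 0.593 CPM in WT ovaries, with only Cd79a tested, at 0.60. T cell markers, whose cells mostly lack these receptors, summed to 7.71 to 8.63 CPM in TG ovaries and 9.05 to 10.5 CPM in WT ovaries, and Cd4 had -0.59, Cd3e -0.57 and Cd8a -0.37. Of the mast cell markers Cma1 had -1.09, Cpa3 -0.55 and Hdc -0.12, and nearly all of their summed 40.4 to 62.1 CPM in TG ovaries and 44.2 to 69.8 CPM in WT ovaries came from Hdc. Sums cover the tested markers of each list, and the others were too low to test or not in the table. Of the T cell markers 5 were tested and of the mast cell markers 3. No marker of these 5 lists was called in edgeR, and DESeq2 called 0. An unadjusted edgeR p under 0.05 was found for 3, Csf3r, Cd4 and Cma1, all lower. Over all genes tested 3.14% were lower at that threshold, and few markers of these lists were tested. The part of these cells in the values of the Fc receptor genes was not tested.

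For genes downstream of the receptors, the counts called in edgeR were near the 1.02% called lower over all genes tested. They are given as a description. In each list the share of genes lower at an unadjusted edgeR p under 0.05 exceeded the 3.14% over all genes tested. Of 21 tested kinases and adaptors of ITAM signalling 0 were called in edgeR, 2 had an unadjusted p under 0.05, and DESeq2 called 1, with a median log2 fold change of -0.14. Syk, the kinase that binds the phosphorylated ITAM, had 19.9 ± 2.15 CPM in TG ovaries and 22.2 ± 3.96 CPM in WT ovaries (± SD, n = 3 per genotype) and -0.16 as a log2 fold change (95% interval -0.48 to 0.17). The Src family kinase Lyn had -0.30 (SE 0.09, edgeR adjusted p = 0.494), and the exchange factor Vav1 had -0.53 (SE 0.25). Of 10 inhibitors of the pathway 0 were called in edgeR or DESeq2 and 2 had an unadjusted edgeR p under 0.05. These were Inpp5d, the phosphatase that Fcgr2b recruits, at -0.47 (SE 0.11, edgeR adjusted p = 0.130) and the tyrosine phosphatase Ptpn6 at -0.52 (SE 0.15), while Cblb had 0.14. Of 20 genes of the phagocytic machinery 1 was called lower in edgeR and in DESeq2. An unadjusted edgeR p under 0.05 was found for 3, all lower. The gene called was Cybb, the catalytic subunit of the phagocyte oxidase, with 11.3 ± 0.961 CPM in TG ovaries and 19.2 ± 3.09 CPM in WT ovaries. Its log2 fold change was -0.77 (SE 0.15, edgeR adjusted p = 0.0434). Dock2 and Ncf4 had -0.68 each and did not pass.

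Among the other ITAM-linked and paired receptors 2 of 17 tested genes were called lower and 0 higher, by edgeR and by DESeq2. Over all genes tested edgeR called 1.02% lower and DESeq2 1.27%. At an unadjusted edgeR p under 0.05, 7 of the 17 were lower, against 3.14% of all genes. Every TG library lay below every WT library for 6 of the 17, against 5.04%. The median log2 fold change was -0.52. Siglec1, the sialic acid receptor of macrophages, had 8.22 ± 0.841 CPM in TG ovaries and 24.8 ± 5.33 CPM in WT ovaries (± SD, n = 3 per genotype) and a log2 fold change of -1.59 (SE 0.18, edgeR adjusted p = 0.00112). Cd72, a C-type lectin with an ITIM, had -1.80 (SE 0.20, edgeR adjusted p = 0.00121). Tyrobp, an ITAM chain related to Fcer1g in its role, had 9.88 ± 0.617 CPM in TG ovaries and 14.1 ± 5.46 CPM in WT ovaries and a log2 fold change of -0.51 (SE 0.25, edgeR adjusted p = 0.9997), and the genotypes overlapped. Pira2, with a mean under 1 CPM in both genotypes, had -1.50 and did not pass.

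Of 13 receptors for other antibody classes, Fc receptor homologues and Trim21, 12 were in the table and 2 had enough counts to be tested. Trim21, the antibody receptor of the cytosol, was called lower, with 12.2 ± 1.18 CPM in TG ovaries and 23.2 ± 4.59 CPM in WT ovaries (± SD, n = 3 per genotype) and a log2 fold change of -0.93 (SE 0.16, edgeR adjusted p = 0.0235). Fcrls, a receptor-like gene of macrophages, had -0.56 (SE 0.18, adjusted p = 0.579). Of the antibody genes Jchain alone was in the table, at 3.04 ± 1.56 CPM in TG ovaries and 1.85 ± 0.387 CPM in WT ovaries (log2 fold change 0.72, edgeR adjusted p = 0.9997), and the heavy and light chains were not analysed here.

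As a scale for the size of these differences, 19 of 19 tested interferon-stimulated genes were called lower in TG by edgeR, with a median log2 fold change of -2.84 and a range of -4.03 to -1.06. The genes of this list were already known to be lower in these samples, and over all genes tested edgeR called 1.02% lower and 0.0354% higher. Fcgr1 and Fcgr4 lay inside that range, with 14 and 15 of the 19 genes further below 0. Fcgr3, Fcgr2b, Fcer1g and Fcgrt had fold changes closer to 0 than all 19. Those with the smallest p were Oas1a at -2.84, Ifi44 at -3.13 and Irf7 at -3.78. Endothelial markers, whose cells are known to carry Fcgrt, had 0 of 12 called in edgeR and DESeq2, and a median of -0.16. Of these 12, 11 had fold changes below 1, and 2 were lower at an unadjusted edgeR p under 0.05. Over all genes tested 3.14% were lower at that threshold. Granulosa markers had 0 of 8 called in both tools, with a median of 0.06 and Amh, Fshr and Cyp19a1 at 0.18, 0.12 and 0.13. Of the 8 theca markers edgeR called 0, with a median of 0.01, and DESeq2 called 1 higher, and Cyp17a1 had 0.73 (edgeR adjusted p = 0.115), Star -0.29 and Insl3 0.21.

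**Figure D5:**
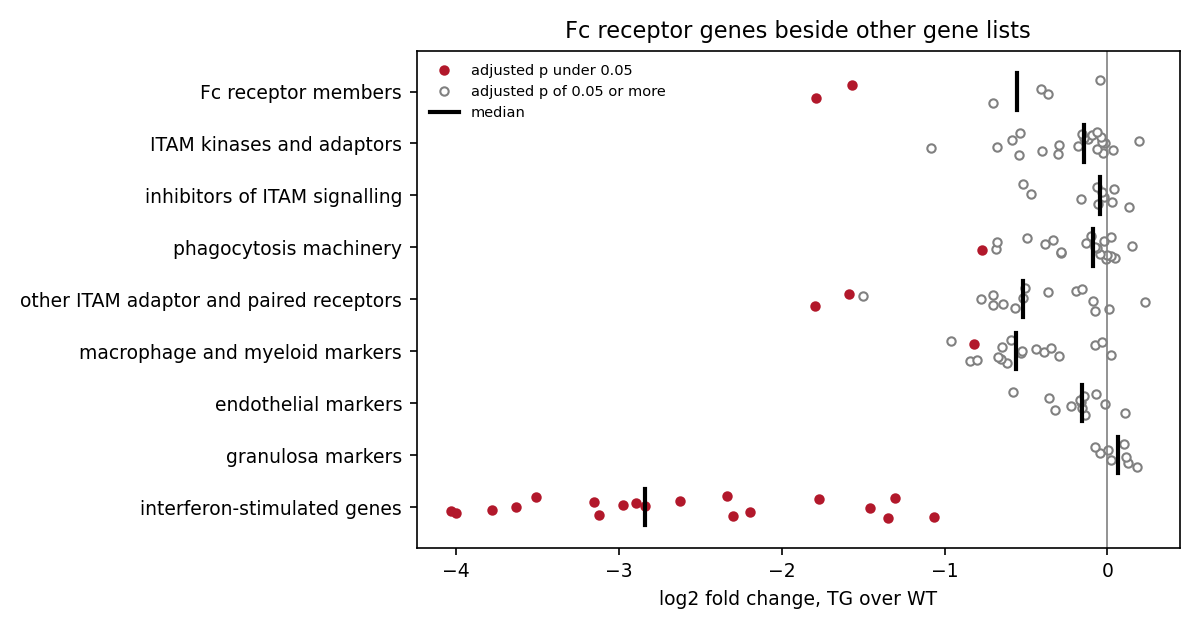
Log2 fold change, TG over WT, of every tested gene of 9 lists, with filled points for an adjusted p under 0.05 in edgeR and a bar at the median of each list. The 2 called Fc receptor genes lie within the range of the interferon-stimulated genes (median -2.84), with 14 and 15 of those 19 further below 0. Cd72 at -1.80 and Siglec1 at -1.59, of the paired receptors, lie at like values. The other 4 members lie among the macrophage and myeloid markers (median -0.56) and closer to 0.

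The genes whose profile over the 6 libraries was most like that of a member were found by the root-mean-square difference between log2 CPM values, each centred on the mean of its gene, among 12704 genes with a mean of at least 2 CPM. For Fcgr1 they were Ifi211 at 0.138, Ifi204 at 0.194 and Ifitm3 at 0.218. For Fcgr4 they were Ube2l6 at 0.0777, Irgm2 at 0.0846 and Uba7 at 0.0992. For Fcer1g they were Cd52 at 0.0648 and the complement genes C1qc at 0.0921 and C1qa at 0.113. Fcgr3 was nearest to Adam5, Kcnq1 and Lrrc49, Fcgr2b to Ace, Cxcl16 and Mov10, and Fcgrt to C1s1, Klf15 and Glis2, at 0.0877 or less. Between members the smallest difference was 0.131, between Fcgr2b and Fcgr3, and Fcgr1 and Fcgr4 differed by 0.311. The points are 6 libraries, 3 of each genotype, so genes with a like difference between the genotypes come out alike, and the measure is a description.

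On build GRCm38.p6 a stretch of chromosome 1 holds 4 of the members: Fcgr2b (170960558 to 170976071), Fcgr4 (171018926 to 171029761), Fcgr3 (171051169 to 171065915) and Fcer1g (171229572 to 171234349). Fcgr1 lies on chromosome 3 (96282909 to 96293969) and Fcgrt on chromosome 7 (45092993 to 45103822). Of the 53 other tested genes within 200 kb of a member 0 were called in edgeR and 3 had an unadjusted p under 0.05, with a median log2 fold change of -0.04 and a range of -1.66, for Nectin4, to 1.08. These counts are near the 1.02% called lower and the 4.08% with an unadjusted p under 0.05 over all genes tested. Between Fcgr2b and Fcgr3, Fcgr4 was called and the flanking receptor genes were not, and the difference between these fold changes was not tested. RefSeq places 4 short RNA genes inside Fcgr3 and 1 inside Fcgr4, and no other annotated gene overlaps a member.

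WT replicate 2 had the lowest CPM of the WT libraries for all 6 members, and its myeloid markers summed to 487 CPM against 673 and 756 CPM in WT replicates 1 and 3. Its summed interferon-stimulated genes were also the lowest of that genotype, at 2328 CPM, and lay above the 612 to 691 CPM of the TG libraries. TG replicate 2 was the lowest TG library for 4 members. Without WT replicate 2 edgeR called 3 members lower, Fcer1g with Fcgr1 and Fcgr4.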

How the data were processed

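Ovarian RNA of 3 TG and 3 WT samples was read on the BGISEQ-500, as the labels' protocols state. Bowtie2 and RSEM 1.3.1 are listed in the submitters' processing notes, as are mm10 and DESeq2 1.4.5, with no role given. The annotation, read length and strandedness are not given in the sources used here, so reads of antisense genes cannot be told apart. The table deposited by the authors holds estimated counts per gene, per the file headers. The other deposited values carry no unit name and were taken as FPKM, because the gene length they imply was the same in all libraries (median ratio to the mean of 0.998 to 1.001 over 6470 genes). The authors' group averages were not used.

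Rounded counts of all genes entered edgeR 4.0.16 (R 4.3.3, TMM, filterByExpr with min.count 10 and min.total.count 15, genotype as the only term, two-sided quasi-likelihood test, Benjamini-Hochberg over 14124 genes). Standard errors are |log2 fold change| over the root of F. Alternatives used DESeq2 1.42.0 and limma 3.58.1, which was applied to voom weights and to log2(FPKM + 1) or log2(FPKM + 0.1) with genes under 1 FPKM in more than 3 samples removed. The procedure was tested on simulated data. There edgeR recovered 47.4% of 1.5-fold changes and 81% of 2-fold changes, and 6.14% of its calls were false. Counting error is the Poisson error of a count.

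Members, lists and alternatives were chosen with earlier results of these data known. Named beside the members are up to 3 genes of each list with the smallest p, a few fixed partners, the 3 nearest profiles and genes within 200 kb. The library genes Cfd, Ovgp1 and Dennd1a were chosen after their values were seen. A gene of the kinase list that this rule names is not reported here.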

Additional observations from a re-analysis of the deposited data

How the results depend on the processing

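Of 19 alternatives, 13 left the count of called members within 1.5 times of the 2 reported. It was 1 with the replicate number as a block, 1 with limma-trend on log2(FPKM + 1) and no filter, and 1 after dropping TG replicate 2 together with WT replicate 3, an alternative chosen after seeing the data. Leaving out single libraries gave 1 to 3 called members. Fcgr1 lost its call under 5 alternatives (log2 fold change between -2.03 and -1.30 over all 19) and Fcgr4 under 1 (between -1.74 and -1.30). The cause was not tested. Fcgrt, never called, ran from -0.18 to 0.0922 (without TG replicate 2) when single libraries were dropped, with 0.03 without WT replicate 1 and 0.02 without WT replicate 3, and had 0.157 when the same 2 libraries were dropped together. The number of genes called overall was 119 to 202, against 149.

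The numbers of the replicates pair the samples in no label. Deviations of same-numbered libraries correlated at 0.0797 to 0.228, and 6 of 6 libraries correlated best with their own number, a hint from the data and not from the design. With the replicate block 159 genes were called, and Fcgr1 had a log2 fold change of -1.75 (edgeR adjusted p = 0.0603). Counting error was 10.7% to 13.5% for Fcgr1 and Fcgr4 in TG libraries, at 55 to 87 counts, and 5.73% to 8.36% in WT libraries.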
